A study of Mus musculus with 18 samples.

Results

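The genes described here are 10 members of the circadian clock and its direct output: the period genes Per1, Per2 and Per3, the activator Arntl (also called Bmal1), the REV-ERB nuclear receptors Nr1d1 and Nr1d2, the repressors Ciart and Bhlhe41, and the transcription factors Dbp and Tef. They were chosen by name, with earlier results of these data known. Each matched 1 gene ID among the 54281 genes of the count table. They were followed in bulk RNA-seq of cortex, taken from male mice of the C57BL/6J strain whose genotype is labelled Mcph1KO or WT. The stages are E17.5, P4, A6w and A18w in the labels' own terms. Wild-type R1 mouse embryonic stem cells (mESC) were sequenced beside them. The 9 groups were Mcph1KO and WT at each of the 4 stages and mESC WT, with 2 libraries in each and 18 in all. Mcph1 encodes microcephalin, a regulator of chromosome condensation. No collection time of day is given in the labels, and they do not say that the libraries of a group came from separate animals, so p-values measure the spread between these samples, which may be technical.

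The mammalian clock is a feedback loop of transcription. ARNTL pairs with CLOCK or NPAS2 and binds E-box sequences in the Per and Cry genes, whose proteins then block it. The same pair drives Nr1d1, Nr1d2, Dbp, Tef, Ciart and Bhlhe41. The REV-ERB proteins repress Arntl through ROR elements, which places Arntl and the E-box genes at opposite times of day. DBP and TEF carry the rhythm to further genes through D-boxes, where NFIL3 opposes them. In adult cortex the loop runs in neurons and glia, whereas pluripotent cells are known to lack a running clock.

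Total counts were 23531045 to 32041849 per library, and all levels below are CPM, counts scaled to library size over the 18 libraries. Mcph1 itself measured 11.8 to 16.6 CPM (median 13.5) in the 8 cortex libraries labelled Mcph1KO and 8.33 to 12.3 CPM (median 9.81) in the 8 WT cortex libraries. The gene-level count shows no loss, so the genotype is given here as a label only. The stem cell marker Pou5f1 measured at most 0.232 CPM in cortex and 1190 to 1480 CPM in mESC, and the cortical neuron marker Neurod6 was at 57.6 to 546 CPM in cortex and at 0 in mESC. The A18w libraries stood apart in markers of striatum, the region under the cortex. All 10 striatal markers were measured, and their sum was 2460 and 1080 CPM in A18w Mcph1KO replicates 1 and 2, 3090 and 704 CPM in A18w WT replicates 1 and 2, and 296 to 513 CPM in the 4 A6w libraries.

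Promoter sequences are shown first because the E-box, the D-box and the ROR element are the sites through which these genes are known to be linked. RefSeq windows of 300 bases, from 250 before to 50 after a gene's start, were in the table used for 9 of the 10 members, on GRCm38.p6. The motifs searched on both strands by exact match were the E-box CACGTG, its variant CACGTT, the D-boxes TTATGTAA and TTACGTAA, the ROR elements TAGGTCA and TGGGTCA, and the cAMP response element TGACGTCA. Capitals mark CACGTG in Ciart, Per1 and Bhlhe41, TTATGTAA in Per3 and TAGGTCA in Arntl. Each promoter sequence ends at the start site or where an annotated exon of the gene begins, and the Arntl line is the 30 bases around its match after the start.
Ciart, chr3:95882252-95882478, minus strand: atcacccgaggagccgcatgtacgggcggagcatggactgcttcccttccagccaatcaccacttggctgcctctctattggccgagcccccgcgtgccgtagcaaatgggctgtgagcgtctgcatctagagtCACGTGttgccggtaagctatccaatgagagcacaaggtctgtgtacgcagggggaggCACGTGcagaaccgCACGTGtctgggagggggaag
Per1, chr11:69098699-69098947, plus strand: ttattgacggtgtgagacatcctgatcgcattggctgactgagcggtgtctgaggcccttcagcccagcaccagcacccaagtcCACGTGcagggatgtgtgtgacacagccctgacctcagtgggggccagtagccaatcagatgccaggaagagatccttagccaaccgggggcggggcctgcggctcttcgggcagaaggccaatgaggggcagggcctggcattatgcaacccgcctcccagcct
Bhlhe41, chr6:145865559-145865670, minus strand: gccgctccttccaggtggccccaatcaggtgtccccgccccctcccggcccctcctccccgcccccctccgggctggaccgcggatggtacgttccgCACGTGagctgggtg
Per3, chr4:151044666-151044915, minus strand: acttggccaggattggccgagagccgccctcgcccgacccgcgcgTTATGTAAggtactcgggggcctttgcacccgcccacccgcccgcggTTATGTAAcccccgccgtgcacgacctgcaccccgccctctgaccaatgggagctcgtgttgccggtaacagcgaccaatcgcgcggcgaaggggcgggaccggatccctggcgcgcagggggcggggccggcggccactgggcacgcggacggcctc
Arntl, chr7:113207530-113207559, plus strand: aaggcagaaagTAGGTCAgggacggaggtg

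CACGTG was present in the windows of 4 of 9 members (Per1, Ciart, Bhlhe41 and Tef) and in 8.09% of the 27025 genes with a window. Ciart held 3 matches, at 116, 58 and 44 bases before its start, within the sequence above. Per1 held a match at 166 bases and Bhlhe41 at 153 bases before the start. CACGTT was found in Nr1d1, at 28 bases before the start, and in 5.44% of all genes. TTATGTAA occurred at 205 and 158 bases before the start of Per3, the only member with it, and in 1.11% of all genes. TAGGTCA occurred in Arntl, at 31 bases after a RefSeq start that lies inside the annotated gene, and in 2.97% of all genes. Positions are counted from the RefSeq start of the window with the match, which can differ from the gene start given below. Per1 and Arntl each also had a window without a match. No window of a member held TTACGTAA, TGGGTCA or TGACGTCA, which were in 0.126%, 4.57% and 2.03% of all genes. The windows of Dbp and Nr1d2 held none of the motifs. A match is a run of letters and not a measured binding site, and these windows leave out introns and distal elements.

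Most clock genes were low in cortex at E17.5 and P4 and high at A6w. From P4 to A6w, 9 of the 10 members rose, between 1.5 and 3.29 on the log2 scale, and in all 9 the 4 A6w libraries lay above the 4 P4 libraries. Over all 19199 genes tested, 27.3% were called higher in this step and 26.6% had all A6w libraries above all P4 libraries. The member median was 2.5 on the log2 scale, against -0.06 for all genes tested. Because earlier results of these data were known when the members were chosen, such contrasts, here and below, are descriptions only. The exception was Arntl, the activator of the loop. Calls are edgeR quasi-likelihood tests with Benjamini-Hochberg adjustment over all genes, at an adjusted p under 0.05.

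**Figure D1:**
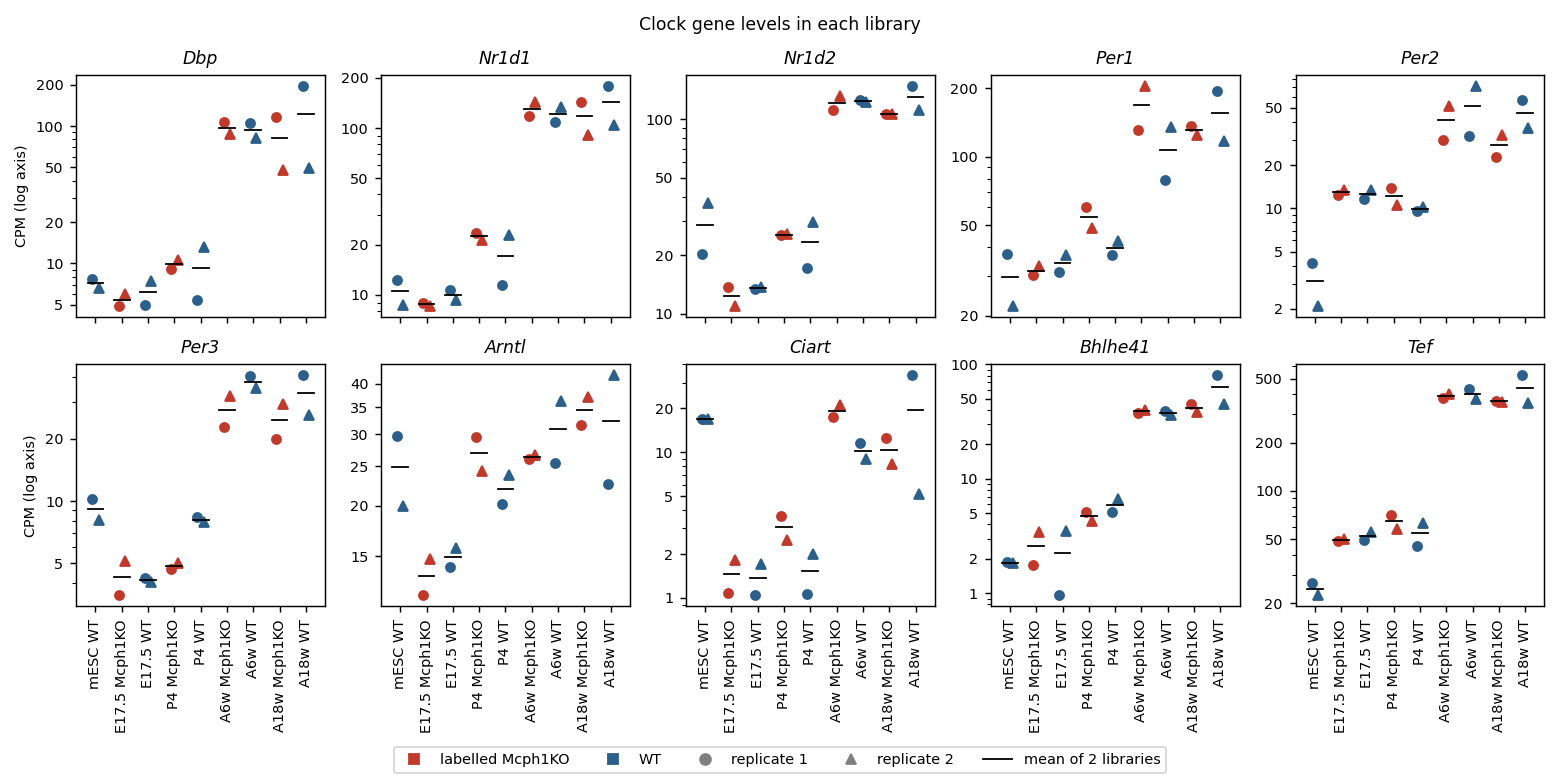
Level of each clock gene in each of the 18 libraries, in CPM on a log axis with its own range in each panel. Red marks libraries labelled Mcph1KO and blue WT, circles replicate 1 and triangles replicate 2, and black lines the mean of the 2 libraries of a group. In 9 panels all A6w and A18w libraries lie above all E17.5 and P4 libraries, and in the Arntl panel they do not. The share of all genes for which this holds was not obtained.

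The output factors Dbp and Tef, both PAR bZIP transcription factors, showed the step clearly. Dbp measured 108 and 87.1 CPM in A6w Mcph1KO libraries and 106 and 82.2 CPM in A6w WT libraries, against 9.16 and 10.6 CPM in P4 Mcph1KO and 5.44 and 13.1 CPM in P4 WT libraries. The lowest A6w library was above the highest P4 library. Dbp rose by 3.29 ± 0.42 (SE) on the log2 scale, or 9.80-fold, with an adjusted p of 2.47e-05 by edgeR. At E17.5 Dbp was at 4.89 to 7.43 CPM, and the P4 step of 0.73 ± 0.41 was not called (adjusted p = 0.18, edgeR). Tef measured 378 and 402 CPM in A6w Mcph1KO libraries and 428 and 375 CPM in A6w WT libraries, against 71.2 and 58.4 CPM in P4 Mcph1KO and 45.8 and 63.4 CPM in P4 WT libraries. The stages did not overlap. It rose by 2.71 ± 0.15 on the log2 scale, or 6.53-fold (adjusted p = 2.05e-08, edgeR). At E17.5 it was at 48.6 to 55.9 CPM, which overlaps the P4 range, and the step of 0.23 ± 0.14 was not called. In bulk tissue, fewer cells with a transcript and less of it per cell cannot be told apart.

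The REV-ERB receptors, which repress Arntl, rose in both steps. Nr1d1 measured 23.5 and 21.4 CPM in P4 Mcph1KO libraries and 11.5 and 22.9 CPM in P4 WT libraries, against 8.96 and 8.59 CPM in E17.5 Mcph1KO and 10.7 and 9.34 CPM in E17.5 WT libraries. Every P4 library exceeded every E17.5 library, although P4 WT replicate 1 was near the E17.5 range. The rise was 1.08 ± 0.23 on the log2 scale (adjusted p = 0.00288, edgeR). At A6w Nr1d1 was at 109 to 143 CPM, which was 2.65 ± 0.23 higher on the log2 scale than at P4 (adjusted p = 8.54e-07, edgeR). Nr1d2 was at 11 to 13.8 CPM at E17.5, 17.3 to 29.7 CPM at P4 and 112 to 131 CPM at A6w, so the 3 stages did not overlap. Its steps were 0.92 ± 0.15 to P4 and 2.30 ± 0.16 to A6w, both called by edgeR (adjusted p = 0.000658 and 1.03e-07).

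The period genes, the negative limb of the loop, differed from each other before the adult stages. Per1 was at 79.1 to 206 CPM at A6w and 37.1 to 60.1 CPM at P4. Per2 measured 30.1 and 51.7 CPM in A6w Mcph1KO libraries and 32 and 71.5 CPM in A6w WT libraries, against 13.9 and 10.6 CPM in P4 Mcph1KO and 9.59 and 10.2 CPM in P4 WT libraries. Per3 was at 22.8 to 40.5 CPM at A6w and 4.68 to 8.34 CPM at P4. All 3 genes were without overlap in this step and rose, by 1.5 ± 0.21 (Per1, adjusted p = 4.5e-05), 2.03 ± 0.26 (Per2, adjusted p = 2.35e-05) and 2.34 ± 0.20 (Per3, adjusted p = 6.4e-07) on the log2 scale in edgeR. At E17.5 Per1 was at 30.1 to 37.1 CPM, Per2 at 11.6 to 13.5 CPM and Per3 at 3.49 to 5.12 CPM. Per kilobase of exon, their levels at E17.5 were 5.83 ± 0.55, 2.17 ± 0.15 and 0.441 ± 0.0704 CPM (SD, n = 4), so Per1 was highest and Per3 lowest. Between E17.5 and P4, the Per3 difference of 0.58 ± 0.20 on the log2 scale was called (adjusted p = 0.0361, edgeR) although its groups overlapped. The call was lost when total counts were used for scaling (adjusted p = 0.0533) and when only the 8 libraries of these stages were fitted (0.0612). It was also lost when any 1 of these libraries other than E17.5 Mcph1KO replicate 2 was left out (0.0672 to 0.149). Per1 was 0.51 ± 0.20 higher at P4 without being called (adjusted p = 0.0649, edgeR), and it was called by DESeq2 (0.0385). Per2 differed by -0.19 ± 0.25 (adjusted p = 0.58, edgeR).

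The repressors Ciart and Bhlhe41 were, with Per3, the 3 least abundant members per length at E17.5, and the mean ± SD of neighbours among these 3 overlapped. Ciart (also called CHRONO), which binds the ARNTL complex, measured 17.4 and 21.1 CPM in A6w Mcph1KO libraries and 11.5 and 9.01 CPM in A6w WT libraries, against 3.64 and 2.5 CPM in P4 Mcph1KO and 1.07 and 2.01 CPM in P4 WT libraries. The lowest A6w library, WT replicate 2, was above the highest P4 library. Ciart rose by 2.66 ± 0.47 on the log2 scale (adjusted p = 0.000336, edgeR). At E17.5 it was at 1.04 to 1.83 CPM, within reach of the P4 values, and the P4 difference of 0.64 ± 0.48 was not called. Bhlhe41 (DEC2), a bHLH repressor at E-boxes, measured 0.957 to 3.51 CPM at E17.5, 4.28 to 6.72 CPM at P4 and 36 to 40.4 CPM at A6w. The 3 stages did not overlap, and both steps were called by edgeR, at 1.16 ± 0.33 (P4 over E17.5, adjusted p = 0.0153) and 2.82 ± 0.32 (A6w over P4, adjusted p = 8.21e-06) on the log2 scale. The call at P4 was lost when only the libraries of these stages were fitted (1.14, adjusted p = 0.0606).

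Arntl, the activator, was called between E17.5 and P4 and not between P4 and A6w. It measured 29.5 and 24.4 CPM in P4 Mcph1KO libraries and 20.2 and 23.8 CPM in P4 WT libraries, against 12 and 14.8 CPM in E17.5 Mcph1KO and 14.1 and 15.7 CPM in E17.5 WT libraries. No P4 library overlapped the E17.5 range, and Arntl rose by 0.80 ± 0.19 on the log2 scale (adjusted p = 0.00517, edgeR). At A6w it was at 25.5 to 36.3 CPM, overlapping P4, and the difference of 0.20 ± 0.18 was not called (adjusted p = 0.369, edgeR). With scaling by total count alone the sign turned, to -0.02, since that scaling moved the median of all genes in this step to -0.28.

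In all, 5 of 10 members were called higher at P4 than at E17.5, against a background of 18.9% of genes called higher in that step. They were Nr1d1, Nr1d2, Per3, Arntl and Bhlhe41, and 4 of them did not overlap between the stages, against 17.2% of all genes. The count was 3 without E17.5 Mcph1KO replicate 1, without P4 WT replicate 2 or without P4 Mcph1KO replicate 1, because Per3 and Bhlhe41 then missed the threshold. Thalamic markers set some of these libraries apart, and their part in the values was not tested. The sum of the 8 markers, none at 0, was 232 and 149 CPM in P4 Mcph1KO libraries, 574 and 200 CPM in P4 WT, 249 and 562 CPM in E17.5 Mcph1KO and 234 and 540 CPM in E17.5 WT. P4 WT replicate 1, high in this sum, was the lowest P4 library for Dbp, Nr1d1, Nr1d2, Per1, Per2, Arntl, Ciart and Tef. Both E17.5 replicates 2, also high, held more Bhlhe41 (3.44 CPM in Mcph1KO and 3.51 CPM in WT) than both replicates 1 (1.77 and 0.957 CPM). Each was also above replicate 1 of its label for Dbp, Per1, Per2, Arntl, Ciart and Tef, the reverse of P4 WT. Nr1d1 was lower in replicate 2 under both labels, and Nr1d2 and Per3 went different ways in the 2 labels. Comparing the 8 adult libraries (A6w and A18w together) with E17.5, all 10 members were called higher, against 33.5% of all genes. Bhlhe41 was 18.3-fold higher (4.19 ± 0.33 on the log2 scale) and Dbp 16.7-fold higher (4.06 ± 0.42), the 2 largest differences, and Arntl was lowest at 1.11 ± 0.17.

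**Figure D2:**
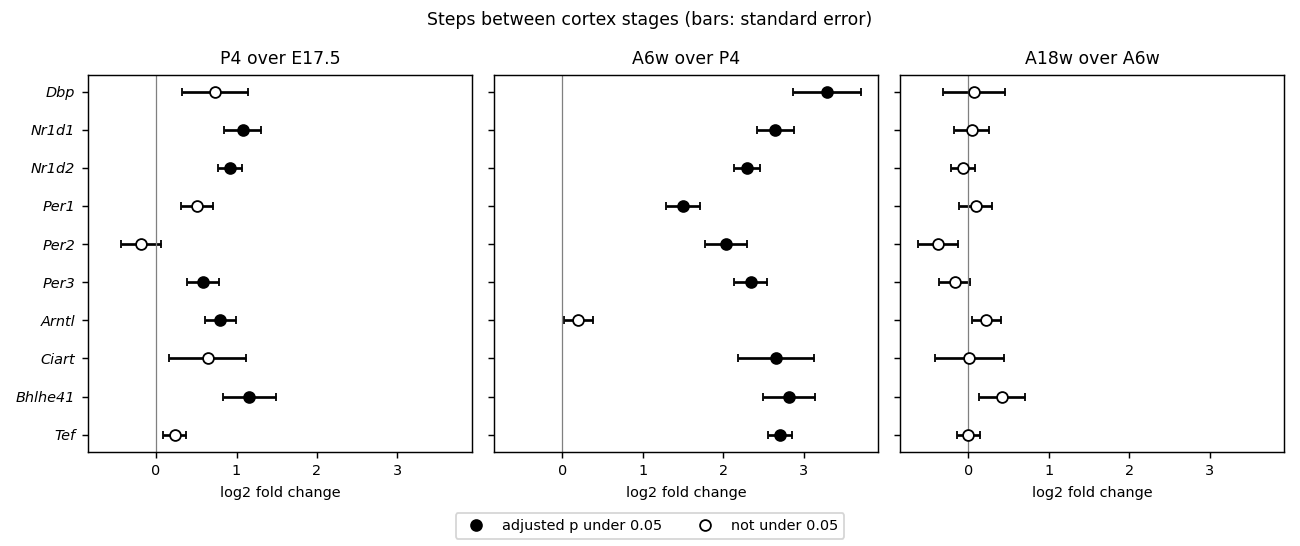
Log2 fold change of each clock gene between successive cortex stages (P4 over E17.5, A6w over P4, A18w over A6w), with standard errors from the edgeR fit. Filled points are called at an adjusted p under 0.05 and open points are not. The A6w over P4 panel holds 9 filled points, at 1.5 or more, and Arntl open at 0.20.

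Levels can be compared between genes only per length, and this was done in CPM per kilobase of annotated exon. Over the 8 adult libraries the order was Tef (50.5 ± 7.32), Nr1d1 (41.5 ± 9.13), Dbp (33.1 ± 15.8), Per1 (25 ± 7.32), Nr1d2 (22.3 ± 2.69), Per2 (7.1 ± 2.82), Bhlhe41 (6.75 ± 2.18), Ciart (6.56 ± 4.05), Arntl (4.12 ± 0.913) and Per3 (3.22 ± 0.808; mean ± SD, n = 8 each). Nr1d2 and Per2 were neighbours whose ranges of mean ± SD did not meet, and the other 8 neighbouring pairs overlapped. At E17.5 the first 2 were Tef (6.49 ± 0.416) and Per1 (5.83 ± 0.55) and the last was Bhlhe41 (0.36 ± 0.188; n = 4 each). In stem cells Ciart was first (7.46 ± 0.00707), but the range of the next, Nr1d2 (5.32 ± 2.18), overlapped it. Bhlhe41 was last (0.276; n = 2 each).

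Against E17.5 WT cortex, some members were higher in stem cells and others lower, as were genes at large. Between E17.5 WT cortex and mESC, 5 of 10 members were called, 2 higher and 3 lower, against 35.3% and 32.7% of the 19466 genes tested in the wild-type fit. Neither share was above that background, so the split is not particular to the clock genes. Ciart measured 1.04 and 1.7 CPM in E17.5 WT libraries, against 16.9 and 16.9 CPM in mESC. The groups were far apart, and Ciart fell by 3.66 ± 0.74 on the log2 scale (adjusted p = 0.00125, edgeR). Per2, with 11.6 and 13.4 CPM in E17.5 WT and 4.15 and 2.1 CPM in mESC, was the opposite case and was 1.96 ± 0.42 higher in cortex (adjusted p = 0.00201, edgeR). Tef was 1.06 ± 0.25 higher (adjusted p = 0.00327), and Per3 and Nr1d2 were lower, by -1.17 ± 0.26 and -1.12 ± 0.32 (adjusted p = 0.00243 and 0.00937, edgeR). The Nr1d2 call was lost without mESC replicate 2 (adjusted p = 0.105), without E17.5 WT replicate 1 (0.0518) and without E17.5 WT replicate 2 (0.0506). Arntl was -0.77 ± 0.32 on the log2 scale and just missed the threshold (adjusted p = 0.0514, edgeR), which it passed in DESeq2 (0.0324).

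Between adult WT cortex and mESC, 8 of 10 members were higher, against 39.5% of all genes, by 1.92 (Per3) to 4.67 (Bhlhe41) on the log2 scale. Arntl and Ciart were the 2 that were not called. Arntl differed by 0.31 ± 0.28 and Ciart by -0.30 ± 0.55 on the log2 scale. The Ciart value rested on A18w WT replicate 1: without that library it was -1.23 (adjusted p = 0.0093, edgeR).

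Of 20 other clock genes, kept as a list of partners, kinases, ligases and PAR bZIP relatives, 12 rose and 3 fell between P4 and A6w, where 27.3% of all genes were called higher and 27.8% lower, with a median of 0.86 on the log2 scale against -0.06 for all genes. Hlf, the third PAR bZIP factor, rose by 3.57 ± 0.27 (adjusted p = 2.53e-07) and Bhlhe40 (DEC1) by 2.93 ± 0.18 (adjusted p = 5.28e-08, edgeR). The deubiquitinase gene Usp2 rose by 2.24 ± 0.20 and the cell-cycle kinase gene Wee1 by 1.87 ± 0.19. The kinase gene Csnk1e fell by 1.18 ± 0.11 on the log2 scale. The positive partner Clock rose by 1.31 ± 0.16, whereas Cry1 fell by 0.46 ± 0.13 and Nfil3, the antagonist at D-boxes, by 0.95 ± 0.22, these 3 being named after their values were seen. Clock measured 89.9 to 120 CPM at A6w and 38.7 to 44 CPM at P4. Unlike Cry1, Cry2 was higher at A6w (138 to 173 CPM) than at P4 (43.3 to 75.5 CPM), and it too was named after its values were seen. Between E17.5 and P4, 6 of the 20 rose and 5 fell, near the background of 18.9% of all genes called higher and 17.9% lower. Npas2, a partner of ARNTL, had the largest rise among them, 2.90 ± 0.28 (adjusted p = 3.23e-05, edgeR).

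Markers of other cell types and regions differed both ways between A6w and P4, and their part in the clock gene values was not tested. All 8 oligodendrocyte markers were measured and called higher, and their sum was 4750 to 8470 CPM at A6w and 92.6 to 144 CPM at P4. Of the 8 astrocyte markers 5 were called higher and 1 lower, with sums of 4400 to 5450 CPM at A6w and 829 to 1300 CPM at P4. All 8 astrocyte markers had counts at both stages, and the oligodendrocyte marker Opalin was at 0 in every P4 library, with Mobp also at 0 in P4 Mcph1KO replicate 2. All 8 microglial markers were called higher as well. Of the 9 meningeal markers 7 were called lower, with sums of 62.8 to 235 CPM at A6w and 465 to 896 CPM at P4. Of the 8 thalamic markers 7 were called lower and 1 higher, with sums of 153 to 171 CPM at A6w and 149 to 574 CPM at P4. Of the 9 choroid plexus markers 6 were called lower and 1 higher, with sums of 178 to 290 CPM at A6w and 65.5 to 843 CPM at P4. Activity and steroid response genes were also higher. Of 17 immediate-early genes 12 were called higher, with sums of 932 to 2940 CPM at A6w and 321 to 497 CPM at P4. Of 12 glucocorticoid-responsive genes 9 were called higher.

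Between A18w and A6w, no member was called, neither over both genotype labels nor within WT or Mcph1KO, by edgeR or DESeq2. No member passed an unadjusted p of 0.05 either. Of all genes, 0.135% were called over both labels (26 genes by edgeR and 235 by DESeq2; 1706 genes, or 8.89%, at an unadjusted p under 0.05), 0.026% within WT (78 genes by DESeq2) and 0% within Mcph1KO (56 by DESeq2). Over both labels the members differed by -0.38 ± 0.25 (Per2) to 0.42 ± 0.29 (Bhlhe41) on the log2 scale, and all 10 overlapped between the stages, where 6.23% of all genes did not. Within Mcph1KO, Nr1d2, Ciart and Tef were lower at A18w and Arntl higher, without overlap. Within WT, Bhlhe41 was higher without overlap. The share of all genes without overlap is not given here for the comparisons within a label.

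Single adult libraries differed in some clock genes far more than the stage means did. No collection time is given for them, so time of day, animal and library cannot be told apart. In A18w, Dbp measured 116 and 48 CPM in Mcph1KO replicates 1 and 2 and 198 and 49.5 CPM in WT replicates 1 and 2. Ciart measured 12.5 and 8.3 CPM in those Mcph1KO libraries and 33.8 and 5.19 CPM in the WT libraries. Arntl went the other way, at 31.7 and 37.1 CPM in Mcph1KO and 22.6 and 42 CPM in WT. The Nr1d1 levels were 144 and 91.2 CPM in the Mcph1KO pair and 180 and 105 CPM in the WT pair, so replicate 1 was higher in both. Nr1d2, by contrast, was even in Mcph1KO (106 and 107 CPM) and less so in WT (149 and 112 CPM). Bhlhe41 measured 45 and 38.8 CPM in Mcph1KO and 80.7 and 45.4 CPM in WT, and Tef 362 and 359 CPM in Mcph1KO and 525 and 350 CPM in WT. Per1 measured 137 and 125 CPM in Mcph1KO and 195 and 117 CPM in WT. Per2 and Per3 went different ways in the pairs. In Mcph1KO replicate 1 was lower, with Per2 at 22.7 and 32.2 CPM and Per3 at 19.9 and 29.6 CPM. In WT replicate 1 was higher, with Per2 at 56.3 and 36.3 CPM and Per3 at 40.7 and 26.1 CPM. A18w WT replicate 1 was the highest of the 8 adult libraries for 7 members (Dbp, Nr1d1, Nr1d2, Per3, Ciart, Bhlhe41 and Tef) and the lowest for Arntl. Groups of 2 allow no test of single libraries, so these values are a description.

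**Figure D3:**
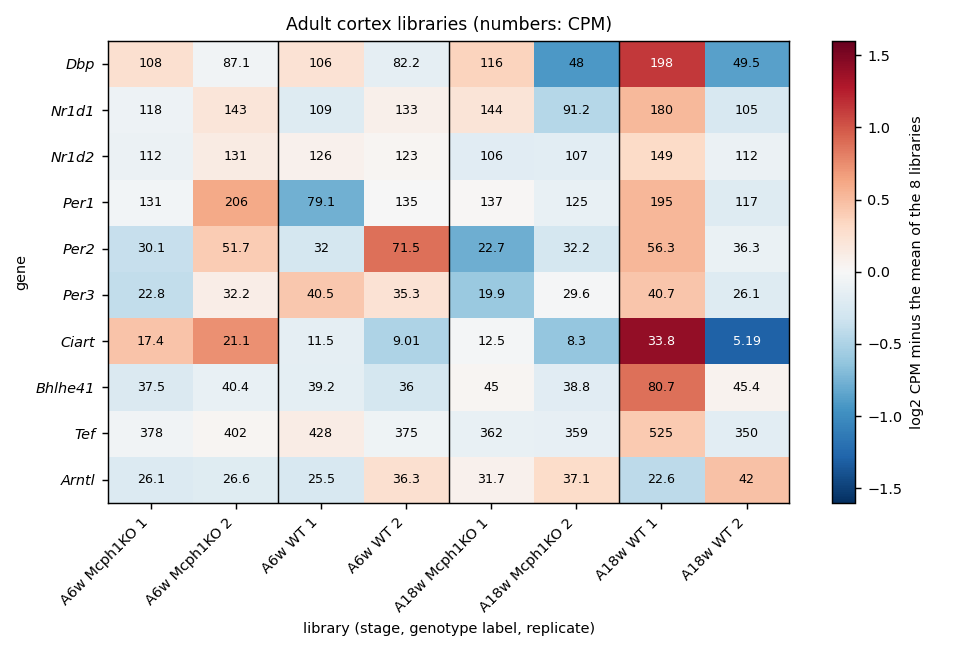
Level of each clock gene in the 8 adult libraries. Numbers are CPM and colours the log2 distance from the gene's mean over these libraries. A18w WT replicate 1 holds the highest value of 7 genes and the lowest of Arntl, and A18w WT replicate 2 the highest value of Arntl.

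The gap between the 2 A18w WT libraries was 2.7 on the log2 scale for Ciart (6.5-fold) and 2.0 for Dbp (4-fold), and 0.958% and 2.25% of all genes had a larger gap. For Arntl it was -0.89 (replicate 1 lower), and 12.6% of genes had a larger gap. The median absolute gap of the 10 members was 0.76 in A18w WT, against 0.26 for all genes tested. In the other adult groups the members' medians were 0.36 (A18w Mcph1KO), 0.28 (A6w Mcph1KO) and 0.32 (A6w WT), against 0.29, 0.29 and 0.25 for all genes. The 2 A6w WT libraries differed in Per2 by -1.16 on the log2 scale, with 71.5 CPM in replicate 2 and 32 CPM in replicate 1, and in Dbp by 0.36, where 36.7% of genes had a larger gap. Other values that set these libraries apart were not tested as causes. The striatal sum given above was 3090 and 704 CPM in the A18w WT pair, oligodendrocyte markers summed to 11000 and 6030 CPM, and choroid plexus markers to 218 and 1220 CPM.

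The spread among adults was small beside the step from early to adult cortex for some members and comparable to it for others. The highest of 8 adult libraries exceeded the lowest by 6.51-fold for Ciart, 4.12-fold for Dbp, 3.15-fold for Per2 and 2.6-fold for Per1, but by 1.5-fold for Tef and 1.41-fold for Nr1d2. The lowest adult library exceeded the highest of the 8 E17.5 and P4 libraries by 5.36-fold for Bhlhe41, 4.92-fold for Tef, 3.88-fold for Nr1d1, 3.66-fold for Dbp and 3.57-fold for Nr1d2. For Per3, Per2, Ciart and Per1 this margin was 2.39-, 1.63-, 1.43- and 1.32-fold, and for Arntl it was 0.766, an overlap. Among these libraries the early and adult ranges were thus disjoint in 9 of 10 members. The share of all genes with disjoint ranges was not obtained for this comparison, so how unusual that count is cannot be said. Collection times are not given for the early libraries either, and whether the adult libraries cover the daily range is not known. A part of time of day in this step was not tested.

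Across the 8 adult libraries, Arntl ran opposite to 3 of the other 9 members, Ciart, Dbp and Tef. Pearson's r of log2 CPM with Arntl was -0.91 for Ciart (Spearman's rho -0.83), -0.86 for Dbp (rho -0.81) and -0.81 for Tef (rho -0.95). The exact two-sided permutation p was 0.00136, 0.00451 and 0.00568 for r (0.0123, 0.017 and 0.017 after Benjamini-Hochberg adjustment over the 9 pairs with Arntl) and 0.0154, 0.0218 and 0.00114 for rho (0.0653, 0.0653 and 0.0103). Of 11831 genes with a mean of at least 5 CPM, Ciart was 7th most opposite to Arntl, Dbp 43rd and Tef 104th. Leaving out the 2 libraries farthest from the median of the partner gene gave r of -0.79 for Ciart, -0.78 for Dbp and -0.80 for Tef. For Ciart these 2 were the A18w WT pair. For Dbp and Tef, A18w WT replicate 2, the highest in Arntl, stayed in, so r without that pair was not obtained. The other 6 pairs had an r of -0.08 (Per2) to -0.67 (Nr1d2), with adjusted p of 0.155 or more. Among these, r without the 2 farthest libraries was -0.83 for Per3 and -0.82 for Per1, so those values depend on which libraries are included. These libraries share stages and genotype labels, the A18w WT pair marks both ends of the Arntl range, and 4 libraries a stage are too few for a value within each stage.

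**Figure D4:**
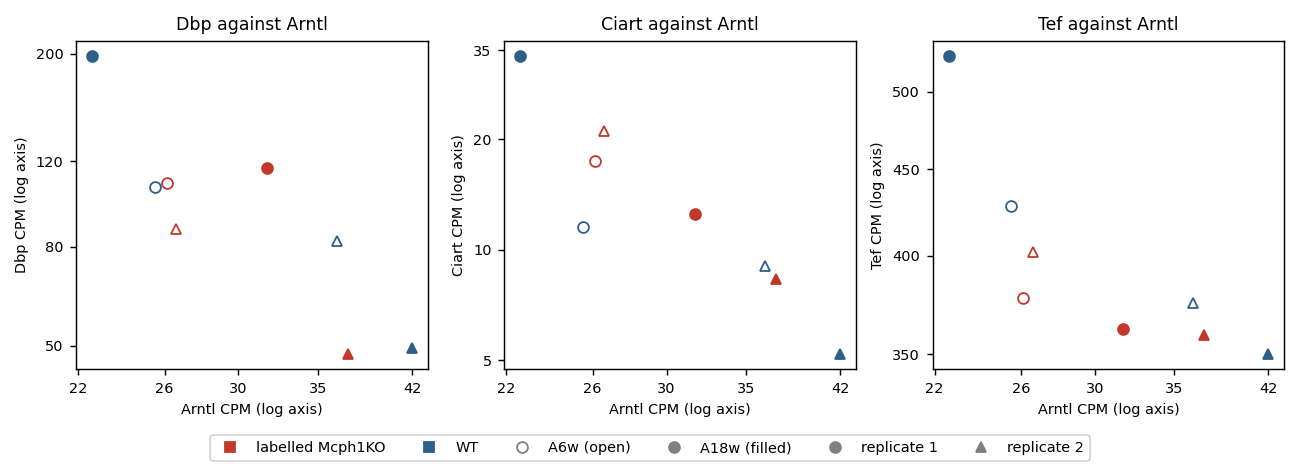
Dbp, Ciart and Tef (vertical axes, CPM, log) against Arntl (horizontal axes, CPM, log) in the 8 adult libraries. Red is labelled Mcph1KO and blue WT, open symbols are A6w and filled A18w, circles replicate 1 and triangles replicate 2. The 3 genes are lower where Arntl is higher (r of -0.86, -0.91 and -0.81), with A18w WT replicates 1 and 2 at the ends.

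Between libraries labelled Mcph1KO and WT libraries no clock gene passed the threshold. No member was called at E17.5, P4, A6w or A18w, averaged over the stages, in the genotype by stage test, or in the difference between A18w and A6w. Of all genes, 0% were called at each single stage, in the genotype by stage test and in that difference, and 0.0521% in the average (10 genes) by edgeR. At an unadjusted p under 0.05 there were 303, 718, 763 and 326 genes at E17.5, P4, A6w and A18w, which is 1.58%, 3.74%, 3.97% and 1.7% of those tested, and 0, 1, 1 and 0 of them were members. DESeq2 called 0 members in each, among 10, 13, 24 and 3 genes at the 4 stages. Libraries of the labels did not overlap in 1 member at E17.5, 5 at P4, 2 at A6w and 3 at A18w, where 20.1%, 29.3%, 32.2% and 22.8% of all genes did not.

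The members with the smallest unadjusted p, named after their values were seen, were Per3, Per1, Per2 and Ciart, and all had an adjusted p of 1 (edgeR). Per3 measured 4.68 and 4.99 CPM in P4 Mcph1KO libraries and 8.34 and 7.88 CPM in P4 WT libraries, a log2 difference of -0.74 ± 0.28. At A6w it measured 22.8 and 32.2 CPM in Mcph1KO and 40.5 and 35.3 CPM in WT. Averaged over stages Per3 was at -0.40 ± 0.14 on the log2 scale, with a lower mean in Mcph1KO at 3 of 4 stages. Per1 measured 131 and 206 CPM in A6w Mcph1KO libraries and 79.1 and 135 CPM in A6w WT libraries, which overlap, a log2 difference of 0.66 ± 0.29. Immediate-early genes summed to 2150 and 2940 CPM in those Mcph1KO libraries and 932 and 1960 CPM in those WT libraries, and their part in the Per1 values was not tested. The 8 hippocampal markers, all measured, summed to 295 and 205 CPM in those Mcph1KO libraries and 540 and 235 CPM in those WT libraries, and this was not tested either. At A18w Per2 measured 22.7 and 32.2 CPM in Mcph1KO and 56.3 and 36.3 CPM in WT, without overlap, and differed by -0.77 ± 0.35. The Ciart difference at A18w minus that at A6w was -1.83 ± 0.87, and it was 0.08 without A18w WT replicate 1.

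**Figure D5:**
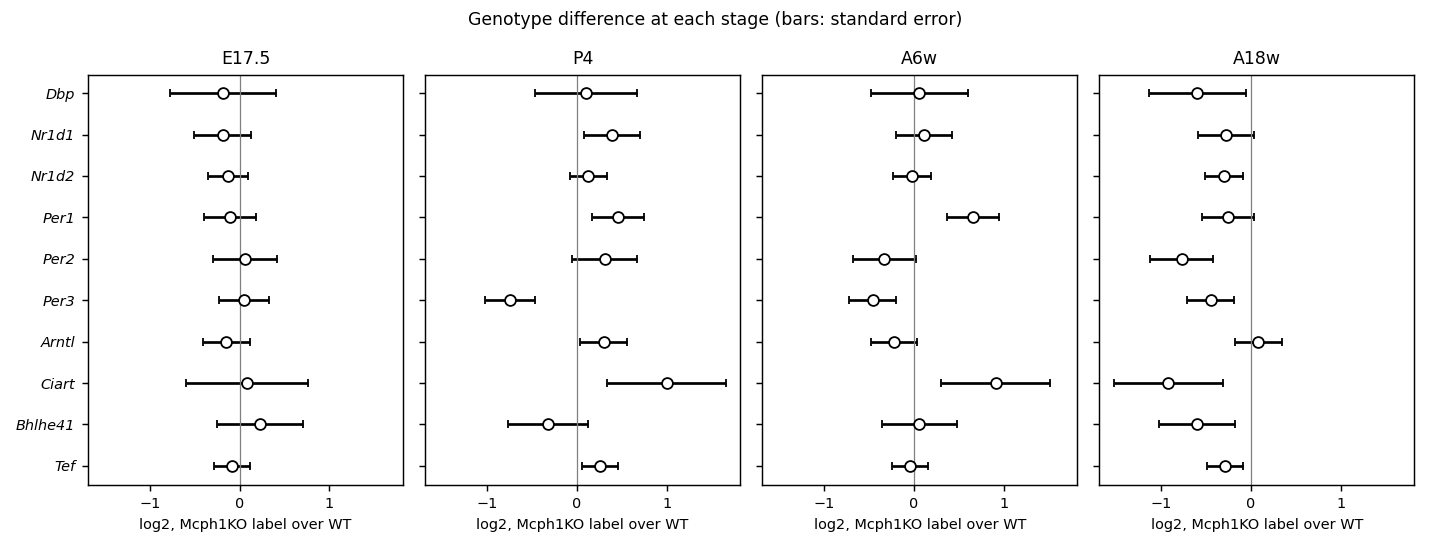
Log2 difference between libraries labelled Mcph1KO and WT libraries for each clock gene at the 4 stages, with standard errors from the edgeR fit. No point was called at an adjusted p under 0.05.

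Some counts can hold reads of a neighbour. An exon of Sphk2 on the opposite strand covers 18% of the Dbp exons, Thra covers 8.55% of those of Nr1d1, and Gm43909 covers 19.0% of those of Bhlhe41. Whether the counting used strand is not given in the sources used here, so reads of these pairs cannot be told apart. On GRCm38, as annotated in GENCODE M21, the output genes lie at chr7:45705088-45710203 (Dbp) and chr15:81802421-81826863 (Tef), and the receptors at chr11:98767932-98775333 (Nr1d1) and chr14:18204054-18239127 (Nr1d2). The period genes lie at chr11:69095217-69109960 (Per1), chr1:91415982-91459324 (Per2) and chr4:151003652-151044665 (Per3). Arntl lies at chr7:113207465-113314126, Ciart at chr3:95878503-95882251 and Bhlhe41 at chr6:145858243-145865558.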

How the data were processed

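The deposited table holds an estimated count for each gene. Salmon 1.4.0, Trimmomatic 0.39, FastQC and the build GRCm38.p6 are named in the submitters' processing notes. How transcripts were summed to genes is not given in the sources used here. Per the labels, cortex homogenate was split for DNA and RNA, and the kit was NEBNext Ultra. The values are whole numbers, so none were rounded further.

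Of 54281 gene IDs, 54107 were matched to a symbol. Tests used edgeR 4.0.16 (R 4.3.3) with filterByExpr at a minimum count of 10 and a minimum total count of 15, TMM scaling and its quasi-likelihood F test, and p-values were adjusted by Benjamini-Hochberg with a threshold of 0.05. One fit took the 16 cortex libraries, with 1 mean per group (19199 genes, 8 residual degrees of freedom), and another the wild-type libraries with the stem cells (19466 genes, 5 residual degrees of freedom). Printed CPM were scaled by TMM over the 18 libraries. Depth per library bounds the precision of low genes such as Ciart. The scripts were tested on simulated data. Alternatives were DESeq2 1.42.0, DESeq2 size factors, total count only, no filter, a fit of all 18 libraries, a fit of only the groups compared, a block for the replicate number, and single libraries left out.

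All 10 members were tested in each comparison. The text gives a value for all 10 in the steps from E17.5 to P4 and from P4 to A6w. In the other comparisons it gives values for some members only. Of the 20 other clock genes, up to 6 called genes of smallest adjusted p were named per comparison, with exceptions stated. Some genes that the naming rules select are not reported here. The members and lists were chosen with earlier results of these data known. Columns left unused numbered 0.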

Additional observations from a re-analysis of the deposited data

How the results depend on the processing

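Across the alternatives, 1249 of the values of single genes kept their direction and side of the threshold, 20 passed it in addition, 16 missed it and 10 turned sign, and 354 of the counts of members stayed within 1.5 times and 5 did not. The 9 members called from P4 to A6w and the 10 called from E17.5 to adult stayed 9 and 10 in each alternative run. The count from E17.5 to P4 ranged over 3 to 6 with single libraries left out. Without a filter on low counts, 1 member (Ciart, adjusted p = 0.0199 in the A18w minus A6w difference) was called in the genotype by stage test and in the A18w minus A6w genotype difference, and 0 with the filter. The sign turned for Ciart in that difference (-2.63 to 0.08 over libraries left out), for Ciart in adult WT over mESC (-1.23 to 0.16) and for Arntl at A6w over P4 (-0.02 with total count only). In E17.5 WT over mESC it turned for Dbp (0.06 with total count only, -0.53 to 0.04 over libraries left out), Nr1d1 (0.19, and -0.33 to 0.18), Per1 (-0.16 to 0.60) and Bhlhe41 (-0.96 to 0.89), none of which was called, and the cause was not tested. Scaling by total count only moved the median of all genes to -0.28 (A6w over P4), -0.30 (adult over E17.5) and 0.36 (E17.5 WT over mESC). Depth limits Ciart and Bhlhe41 before birth.

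With the replicate number as a block, 5 members were called from E17.5 to P4, 9 from P4 to A6w, 0 from A6w to A18w, 10 from E17.5 to adult, 6 in E17.5 WT over mESC (Arntl in addition, adjusted p = 0.0432), 8 in adult WT over mESC and 0 in each genotype comparison. Libraries of the same number in Mcph1KO and WT deviated together with a correlation of 0.486 at E17.5, 0.208 at P4, 0.078 at A6w and 0.3 at A18w, so same-numbered libraries deviated together at 3 of the 4 stages and hardly at A6w. The labels give no shared litter, batch or day, and the fit without the block was kept. Leaving out both A18w libraries numbered 1 or both numbered 2, chosen after seeing the data, left 9 members called from P4 to A6w, a contrast these libraries enter only through the shared spread, and gave 6 in place of 5 from E17.5 to P4 (Dbp in addition, adjusted p = 0.04 and 0.0391).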

Other observations

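Genes that ran most like Dbp over the 8 adult libraries were listed among the 11831 genes with a mean of at least 5 CPM, by Pearson's r of log2 CPM. The closest named were Pik3ip1 (0.98), Alkbh1 (0.97), Nubp1 (0.96), Ufsp1 (0.96), Sh3gl3 (0.95), Mir9-3hg (0.95), mt-Nd3 (0.94), Pip4p1 (0.93) and Timm9 (0.93). The 10 most opposite were Farsa (-0.99), Fastkd2 (-0.97), Npepps (-0.95), Kbtbd7 (-0.94), Copb1 (-0.94), Uba1 (-0.94), Crk (-0.93), Ggcx (-0.93), Myef2 (-0.93) and Caprin1 (-0.93). Among clock genes, Ciart ranked 96th, Nr1d1 121st, Usp2 126th and Tef 198th in likeness to Dbp. For Arntl the closest were Fxyd5 (0.96), Khdrbs3 (0.96), Cdyl (0.95), Hnrnph1 (0.95), Zfp326 (0.95), Clpx (0.95), Srp54b (0.93), Trim28 (0.93), Hsp90b1 (0.93) and Isyna1 (0.93). The most opposite named were Abcb1a (-0.95), Slc2a8 (-0.93), Usp2 (-0.91), Trub2 (-0.91), Mtmr14 (-0.91), Ciart (-0.91), Rrp8 (-0.91), Suv39h2 (-0.91) and Toe1 (-0.9). With 8 libraries, such values are high for many genes, and they are a description of these libraries, which share stages and depth.

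Sgk1, a glucocorticoid-responsive kinase gene named after its values were seen, was among the 26 genes called between A18w and A6w, at 1.01 ± 0.14 on the log2 scale (adjusted p = 0.019, edgeR), with 6 of 10 striatal markers also called higher. It was the only 1 of the 12 glucocorticoid-responsive genes called. Of these 12, 4 were above 0, and their median was -0.23 on the log2 scale, against -0.01 for all genes.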
